A study of Mus musculus with 12 samples.

Results

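Long intergenic noncoding RNAs (lincRNAs) are transcripts of genes that code for no protein and that were annotated as lying between protein-coding genes. The 151 lincRNA genes described here were those with at least 200 counted fragments in every one of 12 mouse aorta libraries, of 4549 lincRNA genes and 50600 genes in the deposited count tables. The rule leaves out H19 and Meg3, of which 1 was among the 152 lincRNA genes that met the minimum. The members were thus chosen by their raw counts in all 12 libraries, so the levels given below are a description. Just inside it stood Pvt1 and Gm13166, each with 200 counts in its lowest library, and 2010320M18Rik with 202. Just outside it were Gm15713, E130102H24Rik and 6230400D17Rik, each with 198.

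The RNA came from aorta, from the left subclavian artery down to the diaphragm, of 12 C57BL/6J mice that all carried 1 functional elastin gene (Elastin +/-, also written Eln+/-). The 4 control mice drank plain water. Another 4 received minoxidil, a vasodilator that opens potassium channels, in their water from 2.5 to 3 months of age and were sampled while on the drug (2 weeks on drug). The last 4 had the same course and then drug-free water for 1 week before the tissue was taken (off drug), and the labels give 3 months as the age of all mice. No elastin wild-type mice are part of the series, so every comparison is between Eln+/- aortas. The dose is not given in the sources used here, and each library is taken to be 1 mouse from the stated group sizes. Smooth muscle was well represented: 7 marker genes summed to 15940 to 18440 CPM (counts scaled to the library total, the unit used throughout) in the controls, 18170 to 20850 on drug and 17480 to 20010 off drug. Whole tissue was sequenced, so a change in the number of cells of a type and a change in RNA per cell cannot be told apart.

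lincRNAs work in several ways. Some build nuclear bodies, as Neat1 does for paraspeckles, and others, such as Malat1, concentrate in nuclear speckles beside splicing factors. Others are the spliced shells from which microRNAs or small nucleolar RNAs (snoRNAs) are cut, and Carmn, whose locus neighbours the miR-143 and miR-145 genes, is known as a transcript of smooth muscle and cardiac cells. Many annotated lincRNAs have no known role, and some overlap protein-coding genes on the opposite strand or are copies of them. Of the 151, 129 carried only a predicted-gene, RIKEN or clone name.

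That overlap bears on every value below. Counting was by gene, with no strand option and with fragments that map to several places or overlap several genes counted for each of them, per the file headers. Exon bases shared with another annotated gene were found in 116 of the 151 lincRNAs, and in 45 they made up over 50% of the exon bases. For 80 members the gene sharing most bases was protein coding, on the opposite strand in 79 of them. A further limit comes from near-identical stretches in genes whose span in the count tables did not overlap the member, called copies here. They were present for 30 of the 149 members with a transcript sequence in GENCODE M21, taken as at least 150 aligned bases at 95% identity or more. The counts of all genes with overlapping exons and of these copies together set an upper limit on the fragments a member can share with them. Fragments from introns of a gene that spans a member, or from unannotated or less similar repeats, lie outside this limit and were not measured. The span of 88 members overlapped that of a protein-coding gene. This limit stayed under 20% of the member's own count for 38 lincRNAs, called lincRNAs with their own reads here. The other 113 may share reads, and for 104 of them the limit was 100% or more. This division was made after the counts had been seen.

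Sequences show what is meant. Gm26825 (chr5:5781530-5783636, plus strand, GRCm38) matched the reverse complement of Hspa8, the constitutive heat-shock protein gene on chromosome 9, over 1940 aligned bases at 99.59% identity. The following 120 bases of its transcript are, with 0 differences, the reverse complement of Hspa8 coding sequence.
Gm26825: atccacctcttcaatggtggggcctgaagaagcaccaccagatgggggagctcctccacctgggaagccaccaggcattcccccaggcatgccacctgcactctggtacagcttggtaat
Gm12840 on chromosome 4 and Gm20186 on chromosome 6 matched over 628 aligned bases at 97.45% identity. Over a window of 120 aligned bases, 5′ to 3′ from the GENCODE M21 transcripts, they differ at 1 base, written as a capital.
Gm12840: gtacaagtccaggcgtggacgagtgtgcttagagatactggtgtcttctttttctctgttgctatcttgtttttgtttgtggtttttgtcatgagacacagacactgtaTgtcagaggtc
Gm20186: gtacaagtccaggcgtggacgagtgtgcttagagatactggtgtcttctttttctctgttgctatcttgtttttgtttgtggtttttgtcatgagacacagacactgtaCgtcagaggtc
MicroRNA genes lay inside 9 members, Mirg among them. Mirg and Gm26532, which begins at such a gene, are shown because their levels changed. Snhg20, 6720427I07Rik and Dubr also hold microRNA genes and were called in no comparison, so no link between microRNA genes and change is drawn. Gm26532 (chr8:84208920-84209609, plus strand) begins within the last bases of the Mir24-2 hairpin gene, and 3 microRNA hairpins of the same strand lie at its 5′ end. Their main mature products, from RefSeq (GRCm38), are shown with the seed, bases 2 to 8, in capitals.
miR-23a-3p: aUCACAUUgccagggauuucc
miR-27a-3p: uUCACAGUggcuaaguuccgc
miR-24-3p: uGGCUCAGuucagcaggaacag
The 3 seeds differ, with miR-23a-3p and miR-27a-3p sharing their first bases. Mirg (chr12:109729764-109749460, plus strand) holds 14 hairpins and 26 mature microRNAs in the RefSeq table, with 25 seeds. A single seed was held by more than 1 of them, by the pair miR-453 and miR-496a-5p, which are shown with miR-134-5p and miR-410-3p.
miR-453: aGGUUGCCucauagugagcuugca
miR-496a-5p: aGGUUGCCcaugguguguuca
miR-134-5p: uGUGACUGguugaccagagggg
miR-410-3p: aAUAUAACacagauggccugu
The libraries counted long-RNA fragments over exons and give no level of a mature microRNA.

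Levels spanned a wide range. Mean CPM per kilobase of exon, the scale used between genes, ran from 0.567 to 1249 with a median of 5.10. The 151 genes together took 1.17% to 1.43% of all counts in a library. A few dominated: Gm26917 took 32.4% of the members' counts, Malat1 16.3%, Gm26870 8.02%, Gm26825 6.15% and Gm42418 5.31%, together 68.2%.

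**Figure D1:**
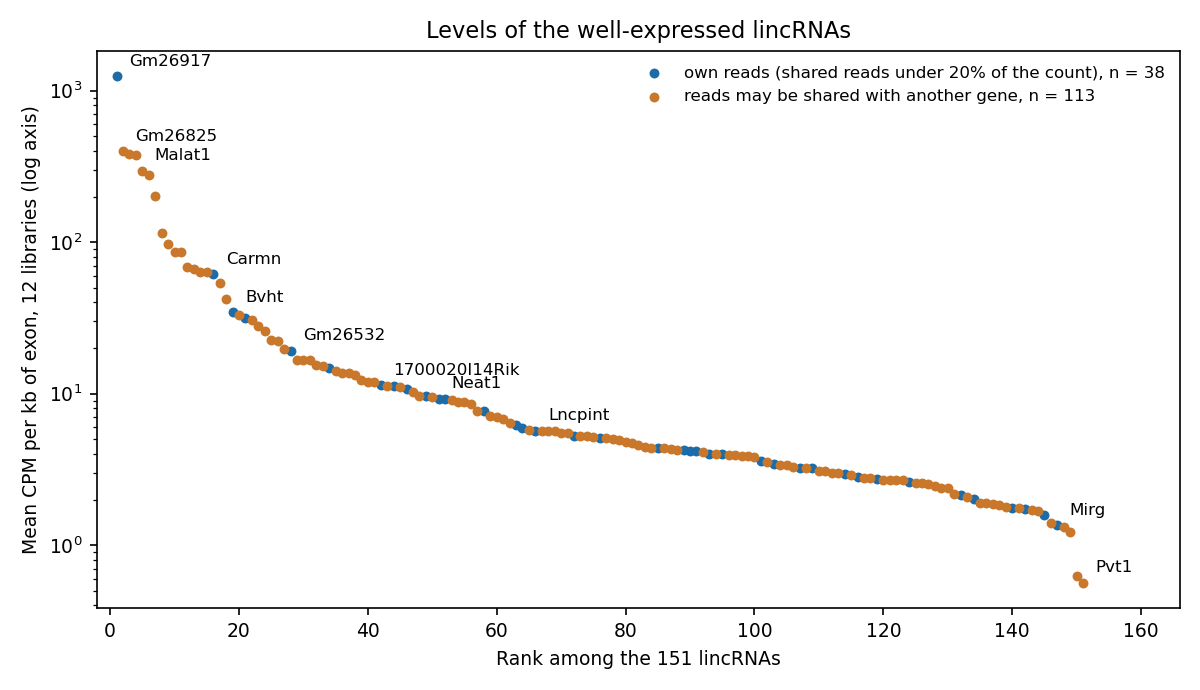
Mean level of each of the 151 lincRNAs over 12 libraries, as CPM per kilobase of exon on a log axis, in order of level; blue points are the 38 with their own reads, orange points the 113 whose reads may be shared. Gm26917 stands highest at 1249, the median is 5.10 and the lowest 0.567.

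Of the 8 highest per kilobase, only Gm26917 had its own reads by this limit. Gm26917 (chr17:39843013-39846341, plus strand) ends 11 bases from the 18S ribosomal RNA gene Rn18s-rs5. Gm42418 and AY036118 lie within Rn18s-rs5 itself, with 99.5% and 100% of their exon bases shared with it, and Gm42418 followed it across the 12 libraries (Pearson r = 0.989 of log2 CPM). Gm26870, with a copy in Gm21738 (501 aligned bases at 95.8% identity), varied widely, from 154 CPM in a control library to 2049.6 CPM in an off-drug library. Gm26776 is counted over exons of Ccdc3, with 98.6% of its bases shared, and Gm17300 over those of the snoRNA host Snhg3, with 46.2% shared. Malat1 had a limit of 30.4%, of which overlapping genes gave 16.7% and copies 13.7%.

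Among 40 members with over 50% of their bases in 1 other gene, the median Pearson r with that gene over the 12 libraries was 0.933, and 24 exceeded 0.9. Among 73 with a smaller share it was 0.770, with 23 above 0.9. Among 33 members with no shared base, the median r with the gene of the nearest protein-coding start was 0.296, with 0 above 0.9 and a range of -0.603 to 0.863. These values are across libraries that share depth and group structure, and the genes are not independent.

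**Figure D2:**
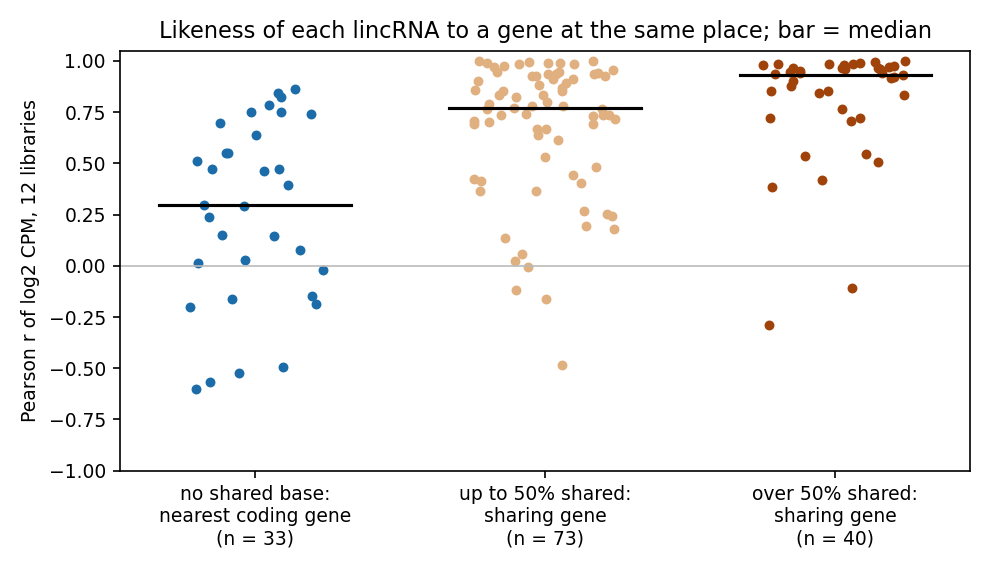
Pearson r of log2 CPM over 12 libraries between each lincRNA and the nearest protein-coding gene (33 members with no shared exon base) or the gene sharing most exon bases (73 and 40 members); points are lincRNAs and bars medians. Medians were 0.296, 0.770 and 0.933 from left to right.

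A minority of the 151 passed a test between groups. All tests were edgeR quasi-likelihood tests over the 24660 genes that passed the filter, which all 151 members did, with Benjamini-Hochberg adjustment and a threshold of 0.05. On drug against control, 12 members rose and 3 fell, or 9.93%, beside 4.13% up, 2.94% down and 7.07% in all for every gene tested. Off drug against control, 14 rose and 11 fell, or 16.6%, beside 6.27% up, 5.77% down and 12% in all. Off drug against on drug, 10 rose and 21 fell, or 20.5%, beside 5.44% up, 6.92% down and 12.4% in all. Protein-coding genes with the same count minimum were called at 12.4%, 19.8% and 19.3% in these comparisons, so the members' shares were lower in both comparisons with control and near theirs in the other. The median log2 fold change of the members was 0.02, -0.00 and 0.01, and that of all genes tested 0.0049, -0.0077 and -0.0011. In all, 43 members were called in at least 1 comparison and 108 in none. Of the members called on drug, 10 were called in the opposite direction off drug against on drug. The on-drug libraries enter those comparisons with opposite sign, which favours such reversed calls. No counts of these kinds over all genes tested are given here, so the 10 cannot be read as a trait of lincRNAs. The 3 comparisons share libraries, so their calls are not independent of each other.

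The 38 lincRNAs with their own reads supplied 16 of the 43. They gave 5 up and 1 down on drug, 3 up and 5 down off drug against control, and 3 up and 11 down off drug against on drug. Those calls were 15.8%, 21.1% and 36.8% of the 38, beside 11.8%, 18.9% and 18.2% of all genes with the same count minimum. The other 27 came from the 113 whose reads may be shared.

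**Figure D3:**
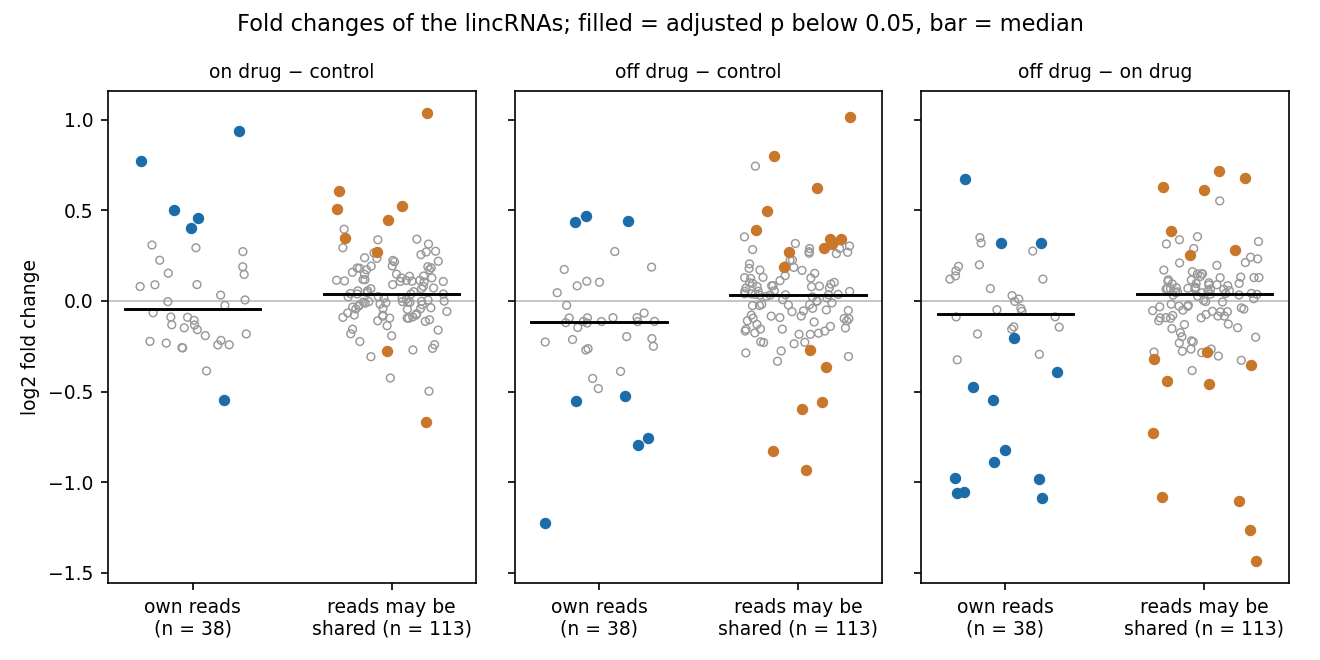
log2 fold change of each of the 151 lincRNAs in the 3 comparisons, split into the 38 with their own reads and the 113 whose reads may be shared; filled points had an adjusted p below 0.05 (edgeR) and bars are medians. Off drug against on drug, 11 filled points lie below 0 among the 38.

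Carmn and Bvht (Braveheart) rose on the drug and fell after it was withdrawn, to values that overlapped the controls. Both lie on chromosome 18 in opposite orientation (chr18:61649625-61665537, minus strand and chr18:61639542-61647472, plus strand), 2153 bases apart, with the Mir143 and Mir145a genes between them. Carmn measured 102, 136, 97.1 and 143 CPM in the controls, 171, 210.3, 178 and 255 CPM on drug and 92.8, 115, 90.9 and 113 CPM off drug. All on-drug libraries lay above all others, and the control and off-drug libraries overlapped. The log2 fold change was 0.77 ± 0.16 (SE, adjusted p = 0.0196) on drug against control, -0.98 ± 0.16 (SE, adjusted p = 0.00262) off drug against on drug and -0.21 ± 0.16 (SE, adjusted p = 0.465) off drug against control.

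Bvht, a transcript known from cardiac lineage commitment, was lower in level and had the same shape. It measured 15.6, 21.7, 15.1 and 22.8 CPM in the controls, 30.4, 35.6, 29.3 and 48.8 CPM on drug and 15.7, 21.5, 12.8 and 19.5 CPM off drug. Its on-drug libraries lay above all others too, with on-drug replicate 4 the highest of the 12 for both genes. The change was 0.94 ± 0.22 (SE, adjusted p = 0.0325) on drug against control and -1.05 ± 0.22 (SE, adjusted p = 0.0117) off drug against on drug. Carmn and Bvht had a Pearson r of 0.984 over the 12 libraries, the highest found for Carmn, followed by Macf1 (0.977), a cytoskeletal crosslinker, and Exoc6b (0.971), an exocyst subunit. Il17b, whose start lies nearest to that of Carmn at 22398 bases, had 3.19 ± 0.573 CPM in the controls, 4.13 ± 0.452 on drug and 2.26 ± 0.363 off drug (SD, n = 4), and its fall off drug against on drug passed the test (log2 -0.87, adjusted p = 0.00108).

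Of the 7 smooth muscle markers 2 also rose on drug, as did 2 of 5 endothelial, 2 of 6 skeletal muscle, 1 of 5 fibroblast, 1 of 4 macrophage and 1 of 3 cardiac markers. Among all genes tested, 4.13% rose in that comparison. Off drug against on drug, 2 of 5 endothelial, 2 of 5 fibroblast and 2 of 4 macrophage markers fell. In that comparison 1 smooth muscle marker rose and 1 fell, and 1 skeletal muscle marker rose, beside 5.44% up and 6.92% down of all genes. Off drug against control, 3 of the 7 smooth muscle markers rose, beside 6.27% of all genes. No fit held a smooth muscle, endothelial or fibroblast score. The 3 cardiac markers summed to 4.55 to 15.6 CPM in the controls, 7.16 to 17.6 on drug and 8.78 to 21.1 off drug, and no fit held a score of them. Summed skeletal muscle markers were low throughout, 4.62 to 6.21 CPM in the controls, 7.02 to 9.44 on drug and 6.18 to 17.3 off drug, with controls below on-drug libraries. With the score of those markers in the fit, the on-drug values were 0.74 for Carmn (adjusted p = 0.0678) and 0.87 for Bvht (adjusted p = 0.104). The summed markers already separated controls from on-drug libraries, so this fit can hardly tell the score from the group. The part of cell mixture in these rises was not tested. The Carmn call was also lost without control replicate 3 or on-drug replicate 2, and that of Bvht without any of 7 single libraries, while the falls off drug against on drug held for both in all 22 alternative fits.

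Lncpint and Prr33 were the other named transcripts with this course. Lncpint (chr6:31093559-31218474, minus strand), a noncoding RNA known as a target of p53, measured 8.46, 12.2, 8.45 and 8.41 CPM in the controls, 15.04, 11.9, 11.01 and 13.4 CPM on drug and 8.29, 9.63, 7.92 and 9.32 CPM off drug. The second control library overlapped the on-drug group, and every off-drug library was below every on-drug library. The change was 0.46 ± 0.13 (SE, adjusted p = 0.0358) on drug and -0.55 ± 0.13 (SE, adjusted p = 0.00708) off drug against on drug.

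Prr33 (chr7:142491074-142506771, minus strand), annotated as a lincRNA in this release although named as a proline-rich protein gene, measured 5.75, 7.995, 5.27 and 7.18 CPM in the controls, 8.76, 9.7, 9.65 and 9.01 CPM on drug and 3.87, 4.97, 5.37 and 5.74 CPM off drug. On-drug libraries stood above all others, and off-drug and control libraries overlapped. It rose by 0.50 ± 0.13 (SE, adjusted p = 0.0303) on drug and changed by -0.89 ± 0.14 (SE, adjusted p = 0.000201) off drug against on drug. The nearest coding start to Prr33 is that of Tnnt3, a skeletal troponin among the muscle markers, whose log2 change on drug was 0.87 (adjusted p = 0.0379) at 1.17 CPM in the controls. With the skeletal muscle score in the fit, Prr33 on drug had an adjusted p of 0.0571 and Lncpint one of 0.083, under the limit given for Carmn and Bvht. The rises on drug of Lncpint and Prr33 were lost without several single libraries, and the falls off drug held in all 22 alternative fits. RP23-135A22.4, a single-exon transcript 8260 bases from the start of Gdf7, was also called up on drug (0.40, adjusted p = 0.0488), a call kept in 5 of 22 alternative fits. Off drug against control it changed by 0.47 ± 0.12 (SE, adjusted p = 0.014). Bvht, Lncpint, Prr33 and the clone-named genes were added to the named genes after their values had been seen, to account for every called lincRNA with its own reads.

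Neat1, the architectural RNA of paraspeckles, fell after withdrawal. Its gene (chr19:5824708-5845478, minus strand) measured 187, 261, 192 and 186 CPM in the controls, 245, 234, 264 and 269 CPM on drug and 106, 119, 113 and 138 CPM off drug. The off-drug libraries were below all 8 others, and the control and on-drug libraries overlapped at control replicate 2. The change was -0.79 ± 0.11 (SE, adjusted p = 0.000223) off drug against control and -1.09 ± 0.11 (SE, adjusted p = 1.05e-05) off drug against on drug. On drug against control it was 0.29 ± 0.11 (SE, adjusted p = 0.112), which did not pass the test with all libraries and did without control replicate 2. Gm27533, a short same-strand gene sharing 152 bases with Neat1, had a mean of 6.76 CPM and r = 0.365 with it. It changed by 0.60 (adjusted p = 0.00834) on drug, 0.27 (adjusted p = 0.199) off drug against control and -0.34 (adjusted p = 0.0908) off drug against on drug. Whether the change differed along the Neat1 gene was not tested.

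Malat1, the abundant nuclear speckle RNA, lies on the same chromosome (chr19:5795690-5802672, minus strand). It measured 2121, 2597, 1916 and 1994 CPM in the controls, 2385, 2359, 2034 and 2340.3 CPM on drug and 1549, 1904, 1714 and 1959 CPM off drug. Off-drug libraries were all below on-drug libraries but overlapped the controls, and the change was -0.36 ± 0.09 (SE, adjusted p = 0.0177) off drug against on drug and -0.28 ± 0.09 (SE, adjusted p = 0.0649) against control. The first of these was lost in 6 of the 22 alternative fits, among them those without off-drug replicate 1 or 3. Neat1 and Malat1 had r = 0.863 over the 12 libraries.

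Some genes for the proteins of these bodies passed the test, at shares to be read against the 7.07%, 12% and 12.4% of all genes called in these comparisons. Of 22 paraspeckle protein genes tested, 0 rose and 2 fell on drug, 0 rose and 2 fell off drug against control, and 1 rose and 1 fell off drug against on drug. Those named by the test were Rbm7 (-0.30 on drug, -0.22 off drug against control), Rbm12 (-0.38 on drug, 0.37 off drug against on drug) and Tardbp (-0.29 off drug against either group), which code for RNA-binding proteins. The median log2 fold change of the 22 was -0.07, -0.06 and 0.03. Of 16 nuclear speckle splicing factors, Srsf5 rose (0.38) and Srsf7 fell (-0.28) on drug, and Srsf6 fell off drug against control (-0.22) and against on drug (-0.30).

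Gm26532, the transcript at the 3′ end of the miR-23a, miR-27a and miR-24-2 hairpins, followed the Neat1 course. It measured 14.04, 15.5, 13.01 and 13.5 CPM in the controls, 14.7, 19.9, 17.6 and 17.4 CPM on drug and 6.97, 8.42, 7.75 and 10 CPM off drug. Off-drug libraries were below all 8 others, and control and on-drug libraries overlapped. The change was -0.75 ± 0.11 (SE, adjusted p = 0.000196) off drug against control, -1.06 ± 0.11 (SE, adjusted p = 4.45e-06) against on drug and 0.31 ± 0.11 (SE, adjusted p = 0.0961) on drug against control. Over the 12 libraries Neat1 and Gm26532 had r = 0.961.

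Mirg, the microRNA-bearing transcript at the far end of the imprinted Dlk1-Dio3 domain on chromosome 12, fell most among all members off drug against control. It measured 12.8, 14.02, 12.7 and 12.5 CPM in the controls, 11.1, 14.1, 9.61 and 9.19 CPM on drug and 4.5, 6.77, 4.47 and 6.48 CPM off drug. The off-drug libraries lay below all others, and the on-drug libraries spanned the whole control range and went below it. The change was -1.22 ± 0.15 (SE, adjusted p = 5.48e-05) off drug against control and -0.98 ± 0.15 (SE, adjusted p = 0.000322) against on drug, and -0.24 ± 0.15 (SE, adjusted p = 0.357) on drug against control. Rian, the snoRNA-bearing transcript of the same domain and not a lincRNA in this annotation, measured 82.8, 97.1, 93.4 and 87.2 CPM in the controls, 97.8, 90.2, 81.9 and 78.9 CPM on drug and 46.8, 61.1, 46.4 and 52.5 CPM off drug. Its off-drug libraries also lay below the 8 others, with a log2 change of -0.80 ± 0.09 (SE, adjusted p = 1.37e-05) off drug against control, and Mirg and Rian had r = 0.962. Meg3, the first noncoding gene of the domain, changed by -0.26 ± 0.09 (SE, adjusted p = 0.0779) off drug against control and -0.55 ± 0.09 (SE, adjusted p = 0.000535) off drug against on drug. Gm27000, an X chromosome copy of Meg3 (842 aligned bases at 99.88% identity), and Gm26906, opposite Meg3, changed by -0.44 and -0.73 off drug against on drug (adjusted p = 0.0207 and 0.001). All exon bases of Gm26906 lie in Meg3 exons, so reads of these genes cannot be told apart.

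Of 9 listed microRNA host transcripts, Carmn included, 6 passed the filter. On drug 2 rose, Carmn and Mir22hg, off drug against control 1 fell, and off drug against on drug 2 fell. Of all genes tested, 7.07%, 12% and 12.4% were called in these comparisons. Mir22hg, the host of miR-22, changed by 0.37 ± 0.07 (SE, adjusted p = 0.00279), -0.37 ± 0.07 (SE, adjusted p = 0.00102) and -0.75 ± 0.07 (SE, adjusted p = 7.3e-07) in these comparisons. Of 5 imprinted antisense and domain transcripts, including Kcnq1ot1, Airn and Peg13, 0 passed in any comparison.

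Gm29371 on chromosome 1 (chr1:87080171-87096418, plus strand) lies across the alkaline phosphatase gene Alppl2 with no shared exon base. It measured 9.82, 9.28, 10.6 and 11.4 CPM in the controls, 12.9, 12.1, 12.8 and 11.8 CPM on drug and 5.68, 6.47, 8.08 and 7.72 CPM off drug, with 3 groups that did not overlap. The change was -0.55 ± 0.11 (SE, adjusted p = 0.0022) off drug against control, -0.83 ± 0.11 (SE, adjusted p = 4.16e-05) against on drug and 0.27 ± 0.11 (SE, adjusted p = 0.13) on drug against control. Its closest patterns over the 12 libraries were those of Lamb1 (r = 0.984), a laminin chain, Csf2rb (0.983), a cytokine receptor subunit, and Ablim3 (0.971), an actin-binding protein.

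Gm17501 is transcribed away from Cyr61 (also called Ccn1), a matricellular gene induced by stretch and growth factors, and the gene starts are 331 bases apart in the count files. The 250 bases before and 50 after its RefSeq start (chr3:145649827-145650126, plus strand, GRCm38.p6) overlap the interval between the genes, since RefSeq places the start of Gm17501 nearer to Cyr61, and are shown with the single match to TATAAA or its reverse complement in capitals, 72 bases before the RefSeq start and in the orientation of Cyr61.
Gm17501 promoter: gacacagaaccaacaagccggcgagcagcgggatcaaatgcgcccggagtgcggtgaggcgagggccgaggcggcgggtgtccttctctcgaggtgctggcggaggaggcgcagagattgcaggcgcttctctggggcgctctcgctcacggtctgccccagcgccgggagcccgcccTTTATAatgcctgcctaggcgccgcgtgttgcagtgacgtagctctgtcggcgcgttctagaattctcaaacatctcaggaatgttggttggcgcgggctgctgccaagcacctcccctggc
This hexamer occurred on either strand in 13.6% of 32851 RefSeq mouse promoters of that length and in 4 of the 46 members with an entry (8.70%). Gm17501 measured 8.53, 11.2, 11.5 and 10.03 CPM in the controls, 9.72, 10.3, 9.28 and 8.31 CPM on drug and 6.91, 7.34, 7.12 and 7.31 CPM off drug. Off-drug libraries were below all 8 others. The change was -0.52 ± 0.10 (SE, adjusted p = 0.00229) off drug against control, where Cyr61 changed by -0.83 ± 0.19 (SE, adjusted p = 0.0203), and -0.39 ± 0.10 (SE, adjusted p = 0.0154) off drug against on drug, where Cyr61 changed by -0.30 ± 0.19 (SE, adjusted p = 0.386). Their r over the 12 libraries was 0.783.

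A430046D13Rik went the other way. This transcript on chromosome 10 (chr10:128499364-128504242, plus strand) starts 679 bases from Myl6b, a myosin light chain gene, and runs away from it. It measured 6.61, 6.26, 6.13 and 6.65 CPM in the controls, 5.1, 5.48, 5.26 and 5.98 CPM on drug and 9.29, 7.01, 10.1 and 8.4 CPM off drug. The groups did not overlap, with on-drug libraries lowest and off-drug libraries highest. The change was 0.67 ± 0.11 (SE, adjusted p = 0.000439) off drug against on drug, 0.44 ± 0.11 (SE, adjusted p = 0.0132) off drug against control and -0.23 ± 0.11 (SE, adjusted p = 0.225) on drug against control. Myl6b itself varied too widely within groups to give a call, with 41.8 ± 64.0, 86.4 ± 51.9 and 100.7 ± 59.2 CPM (SD, n = 4).

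**Figure D4:**
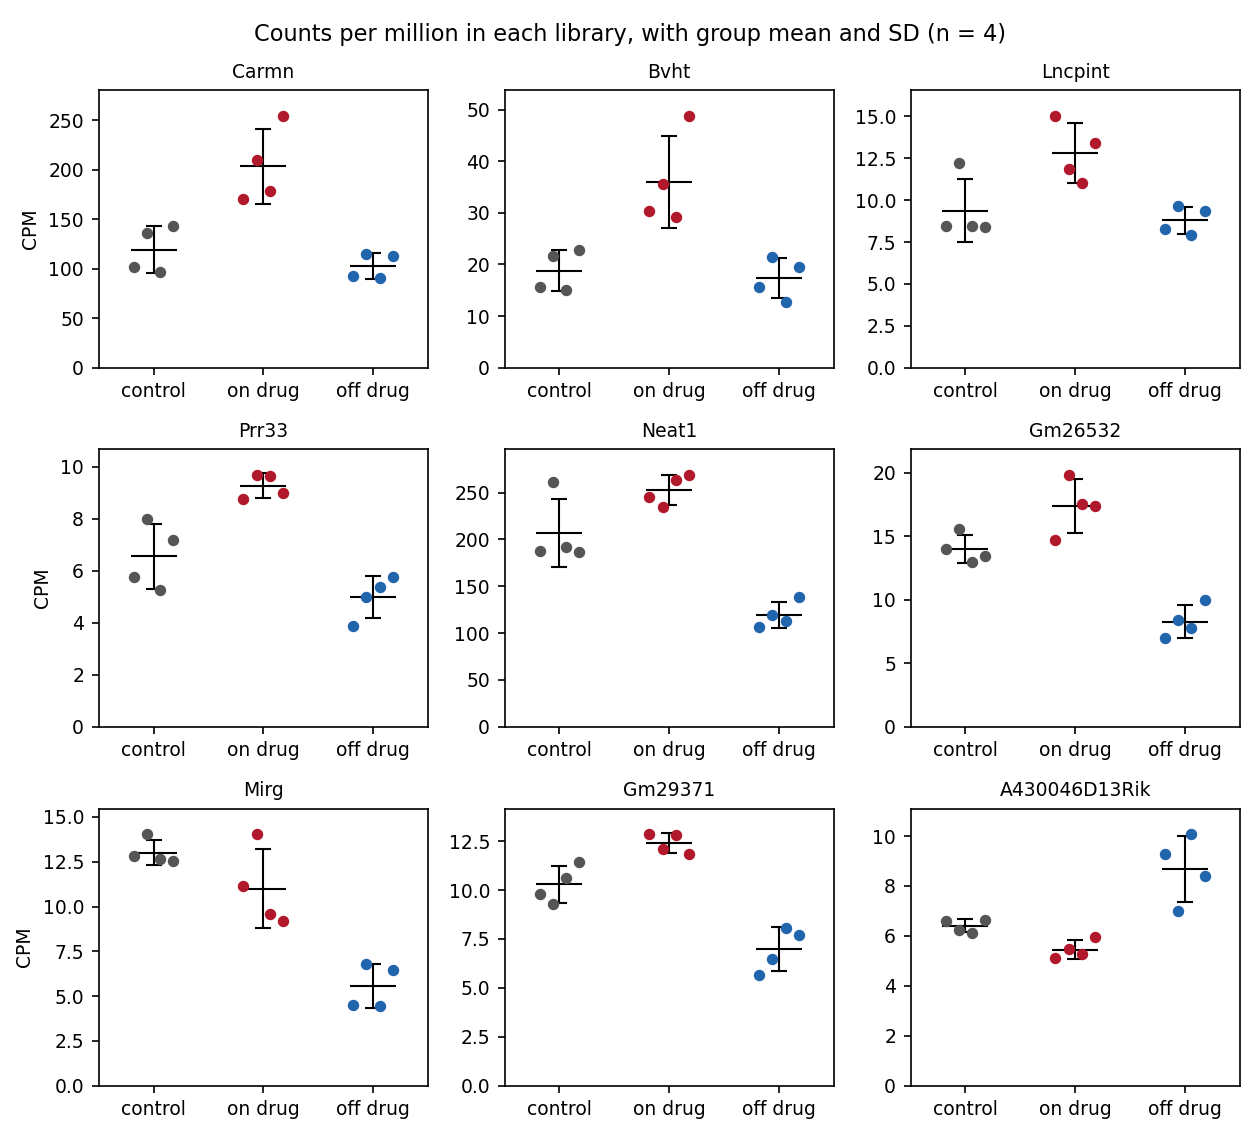
CPM of 9 lincRNAs with their own reads in each of the 12 libraries; points are libraries, grey for control, red for on drug and blue for off drug, and black marks give the group mean and SD (n = 4). Carmn, Bvht, Lncpint and Prr33 are highest on drug, Neat1, Gm26532, Mirg and Gm29371 lowest off drug and A430046D13Rik highest off drug.

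The remaining called lincRNAs with their own reads had smaller changes. A830039N20Rik, inside the potassium channel gene Kcnma1 on the same strand, rose by 0.44 ± 0.12 (SE, adjusted p = 0.023) off drug against control, where Kcnma1 rose by 0.36 (adjusted p = 0.000713). Whether fragments of Kcnma1 introns entered its count was not tested. AI838599 rose by 0.32 off drug against on drug, where RP24-501G17.1 fell by 0.47 on the log2 scale, and both calls were lost in 9 or more of 22 alternative fits. Snhg18, host of Snord123 and 151 bases from the start of Sema5a, measured 49.1, 46.9, 51.8 and 46.8 CPM in the controls, 45.1, 54.2, 46.7 and 49.2 CPM on drug and 41.5, 42.02, 44.2 and 41.95 CPM off drug, and its change of -0.20 ± 0.06 (SE, adjusted p = 0.0443) off drug against on drug was kept in 7 of 22 alternative fits. Summed skeletal muscle markers reached 6.21 CPM in the controls and began at 6.18 CPM off drug, so a fit with their score can hardly tell it from the group. With the skeletal muscle score in the fit, the off-drug calls against control were kept for Neat1 (adjusted p = 0.0136), Mirg (0.0012) and Gm26532 (0.0166). They were lost for Gm29371 (0.0727), Gm17501 (0.068), RP23-135A22.4 (0.117) and A830039N20Rik (0.109). That of A430046D13Rik was lost without off-drug replicate 3 (adjusted p = 0.0628).

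Gm26917 fell on drug and rose again off it. It measured 4422, 4574, 4965 and 5702 CPM in the controls, 3004, 3263, 3731 and 3447 CPM on drug and 4240.3, 3996, 4127 and 4437 CPM off drug. On-drug libraries were below all others, and the highest off-drug library just exceeded the lowest control. The change was -0.55 ± 0.08 (SE, adjusted p = 0.000642) on drug, 0.32 ± 0.08 (SE, adjusted p = 0.0116) off drug against on drug and -0.23 ± 0.08 (SE, adjusted p = 0.0728) off drug against control. Its neighbour Rn18s-rs5 changed by -0.12 ± 0.09 (SE, adjusted p = 0.517) on drug, and Gm42418 inside that gene by -0.16 ± 0.09 (SE, adjusted p = 0.306). The r between Gm26917 and Gm42418 was 0.630. Whether fragments of ribosomal RNA entered the count of Gm26917 was not tested.

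Other long-known lincRNAs and hosts did not pass the test. 1700020I14Rik (Cyrano, Oip5os1), the RNA that directs decay of miR-7, held between 88.8 and 105 CPM in the 12 libraries, with log2 changes of -0.07, -0.11 and -0.05. Pvt1, beside Myc, changed by 0.23, -0.15 and -0.38 (adjusted p = 0.362, 0.567 and 0.09), and Snhg6, Snhg12 and Snhg20 by -0.26 to 0.27. Of 19 snoRNA host genes tested, 4 of them members, 0 rose and 1 fell on drug (Snhg4, -0.44), 0 were called off drug against control, and 2 fell off drug against on drug (Snhg5, -0.32, and Snhg18). Many spliced snoRNA host RNAs are degraded by nonsense-mediated decay, whose factors gave 0 calls of 14 on drug, 2 up (Smg6, Smg9) and 1 down (Smg1) off drug against control, and 1 up (Smg8) off drug against on drug. The counts of both lists are to be read against the 7.07%, 12% and 12.4% of all genes called in these comparisons.

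Among the 113 members whose reads may be shared, the called ones went with their sharing gene. On drug, 8 of the 9 called had a sharing gene in the test, and all 8 of those genes were called in the same direction. Off drug against control it was 14 of 14 among 17 called. Off drug against on drug it was 10 of 15 among 17 called, with the same sign in all 15. Fragments over shared bases enter both counts, so these are not independent results. Gm26809 and Gm20186 are each other's sharing gene and both enter the counts of every comparison. The same holds for C330006A16Rik and 1810012K08Rik off drug against control. The shared bases were few in some pairs, such as 3.84% of the exon bases of A330033J07Rik with Id4, and the part of shared fragments in the joint changes was not tested.

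**Figure D5:**
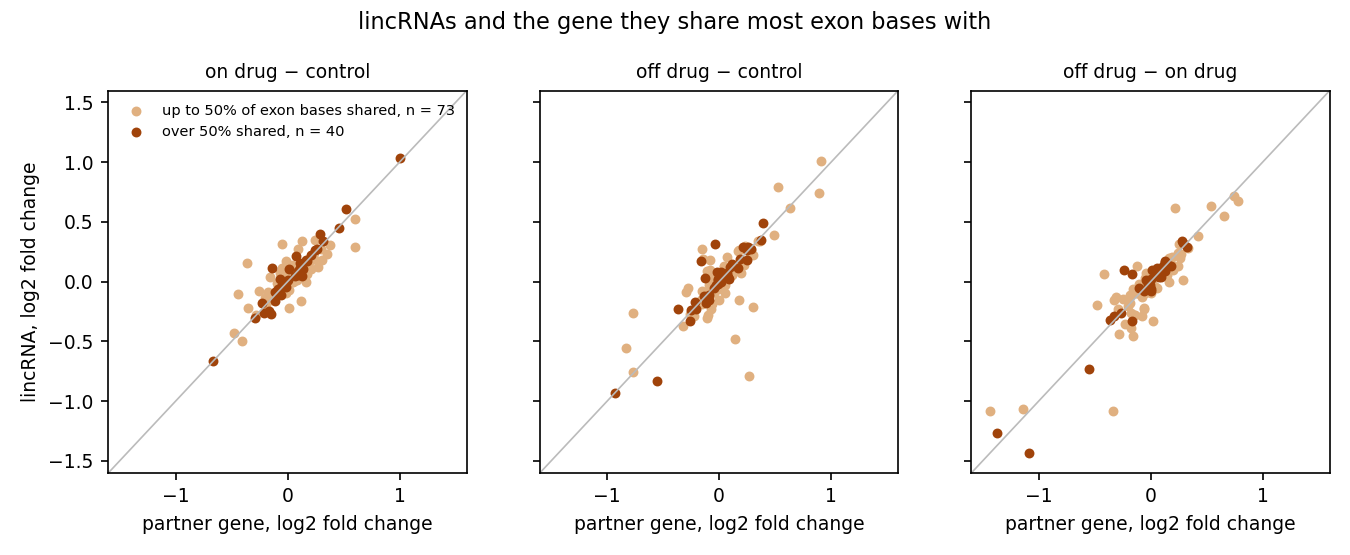
log2 fold change of each lincRNA against that of the gene sharing most exon bases with it, in the 3 comparisons; light points share up to 50% of exon bases (n = 73), dark points over 50% (n = 40), and the grey line marks equal change. Most points lie near the line, Gm29233 with Thbs1 near 1 on drug and near -1.3 off drug against on drug.

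Gm29233 lies over 74.0% of its bases in the opposite-strand exons of Thbs1, the gene of thrombospondin 1, a matricellular glycoprotein. It measured 4.72, 5.69, 5.53 and 7.99 CPM in the controls, 11.9, 15.9, 10.5 and 10.9 CPM on drug and 5.46, 3.89, 6.51 and 4.64 CPM off drug. On-drug libraries were above all others. The change was 1.04 ± 0.19 (SE, adjusted p = 0.00488) on drug and -1.27 ± 0.19 (SE, adjusted p = 0.000388) off drug against on drug, and Thbs1, at 102 ± 20.7, 205 ± 34.0, 79.03 ± 12.1 CPM (mean ± SD, n = 4 each, in the order control, on drug, off drug), changed by 1.01 and -1.38. Gm26889 shares 99.6% of its bases with Svep1, a large extracellular matrix protein gene, and changed by 0.45 ± 0.08 (SE, adjusted p = 0.00418) on drug, where Svep1 changed by 0.46. Off drug against on drug the changes were -0.32 ± 0.08 (SE, adjusted p = 0.0152) and -0.36.

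Gm26825 measured 925, 821, 1398 and 1355 CPM in the controls, 631, 811, 683 and 709 CPM on drug and 612, 621, 524 and 599.6 CPM off drug. The control libraries were above all others, and off-drug libraries were below on-drug libraries. It changed by -0.67 ± 0.16 (SE, adjusted p = 0.0322) on drug and -0.93 ± 0.16 (SE, adjusted p = 0.00377) off drug against control, and Hspa8, whose reverse complement was shown above, by -0.68 ± 0.16 (SE, adjusted p = 0.0254) and -0.94 ± 0.16 (SE, adjusted p = 0.00286). Their r was 0.999. The call on drug was lost in 10 of 22 alternative fits and that off drug in 0. Gm26619 over the ribosomal protein gene copy Gm10260 changed by -0.28 ± 0.08 (SE, adjusted p = 0.0322) on drug, with r = 0.9999 between the pair, and this call was lost in 7 of 22 alternative fits.

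Gm12840, Gm20186 and Gm26809, which hold near-identical stretches, moved together, and Gm20186 had the smallest adjusted p of the members in all 3 comparisons. Gm26809 and Gm20186 overlap each other on opposite strands beside Lsm8 on chromosome 6, and Gm12840 on chromosome 4 matches part of each. Gm20186 measured 41.2, 41.3, 40.7 and 50.3 CPM in the controls, 70.96, 60.0, 60.2 and 72.8 CPM on drug and 23.3, 23.8, 26.7 and 23.9 CPM off drug. Gm12840 measured 56.8, 54.6, 56.5 and 69.7 CPM in the controls, 89.6, 83.9, 77.4 and 86.7 CPM on drug and 33.1, 40.8, 41.3 and 42.0 CPM off drug. In each of the 3 genes the on-drug libraries were highest, the control libraries intermediate and the off-drug libraries lowest, with no overlap between groups. Changes on drug were 0.61 ± 0.08 (SE, adjusted p = 0.000322) for Gm20186, 0.53 ± 0.07 (SE, adjusted p = 0.000327) for Gm26809 and 0.51 ± 0.08 (SE, adjusted p = 0.00194) for Gm12840. Off drug against on drug they were -1.43 ± 0.08 (SE, adjusted p = 1.12e-08), -1.08 ± 0.07 (SE, adjusted p = 3.42e-08) and -1.10 ± 0.09 (SE, adjusted p = 1.89e-07). All 9 calls of the trio held in all 22 alternative fits. Fragments in the shared or matching stretches cannot be assigned to 1 of the 3 genes, and the trio counts as 1 observation here rather than 3. Gm26809 matched Gm12840 over 513 aligned bases at 97.1% identity. The count of Gm20186 was 22.5% of that of Gm26809, so most Gm26809 fragments were not shared with Gm20186. With all copies the sharing limit of Gm26809 was 155.1%, and the part of its count that is its own was not measured. The neighbour Lsm8, a subunit of the U6 small nuclear RNA complex, changed by -0.11 ± 0.09 (SE, adjusted p = 0.528) on drug.

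Further pairs rose off drug. Gm42743 measured 10.1, 12.8, 12.7 and 12.5 CPM in the controls, 10.7, 12.7, 16.9 and 14.4 CPM on drug and 21.1, 18.9, 24.0 and 19.3 CPM off drug, with off-drug libraries above all others, and changed by 0.80 ± 0.12 (SE, adjusted p = 0.000425) off drug against control. The histone gene Hist2h2bb at the same place, with r = 0.992, changed by 0.80 ± 0.12 (SE, adjusted p = 0.000349). A330033J07Rik, head to head with Id4, an inhibitor of basic helix-loop-helix factors, changed by 1.01 ± 0.19 (SE, adjusted p = 0.0024) off drug against control, and Id4 by 0.91 ± 0.15 (SE, adjusted p = 0.00171). Gm26840, antisense to the matrix protein gene Vwa1, changed by 0.62 ± 0.13 (SE, adjusted p = 0.00369), and Vwa1 by 0.64 ± 0.11 (SE, adjusted p = 0.000873). The lincRNAs Gm26694 (over Metrn), 9530082P21Rik, Gm16596 (over Eml1), Gm26776 (over Ccdc3) and C330006A16Rik (over 1810012K08Rik) also passed the test, with log2 changes of 0.34, 0.32, 0.34, 0.19 and 0.39. The transcript of 9530082P21Rik matched Flywch1, on the same chromosome, over 1073 aligned bases at 100% identity. Whether these are the same genomic bases was not tested. The call of Gm26776 was kept in 6 of 22 alternative fits and that of Gm26694 in 17. Those of Gm26840, Gm16596 and 9530082P21Rik were lost with the skeletal muscle score in the fit (adjusted p = 0.0698, 0.24 and 0.132), and that of C330006A16Rik was kept in all 22. C330006A16Rik had a sharing limit of 22.5%, close to the 20% line, and its nearest patterns were those of C230034O21Rik, Mrvi1, a smooth muscle protein gene of nitric oxide signalling, and Smtn (r = 0.975, 0.974 and 0.965).

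Blood moved between the groups as well. The 5 erythroid markers, summed to 4922 to 20560 CPM in the controls, 3876 to 5997 on drug and 2037 to 4799 off drug, all fell off drug against control, and 2 of 4 macrophage markers fell in that comparison. The part of blood and macrophages in the lincRNA changes was not tested, and no fit held a score of their markers. Adipocyte markers ranged from 58.0 to 451 CPM and gave 0 calls, and a score of them was among the alternative fits. Depth was 41524501 to 109423243 counts a library, so changes of the size of the smallest called ones could be missed in the least counted members.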

How the data were processed

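RNA of 12 aortas was sequenced, 4 in each group. Per the file headers, the authors made the deposited raw counts per gene with featureCounts 1.4.6-p3 on GENCODE M13 exons of GRCm38, counting multi-mapping and overlapping fragments for each gene and using no strand option. The deposited series table holds log2 of the count divided by a size factor, plus 1, and was used only for gene types. The members and lists were chosen with earlier results of these data known.

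edgeR 4.0.16 (TMM, filterByExpr, robust quasi-likelihood fit, 1 model of 3 groups) tested 24660 genes, two-sided, with Benjamini-Hochberg adjustment and a threshold of 0.05. The procedure was tested on simulated data. The SE of a log2 fold change was calculated as its absolute value divided by the square root of the quasi-likelihood F statistic. CPM used TMM library sizes. Replicates are separate samples by the labels, so p-values measure the spread between them. Named were the 8 highest per kilobase, per comparison the 6 called up and 6 called down with the smallest adjusted p, and a list of known lincRNAs; others were added after their values were seen. Lists of snoRNA hosts, paraspeckle proteins, speckle factors, decay factors, imprinted transcripts and microRNA hosts were counted. DESeq2 1.42.0, limma 3.58.1, other normalizations, filters, covariates and member rules, and single libraries left out, were alternatives. Copies were found with BLAST+ 2.17.0.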

Additional observations from a re-analysis of the deposited data

Results flagged for a closer look

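In 123 groups of 4 libraries, 13 had 1 library far from the other 3, by Dixon's test of the gap to its nearest neighbour against the whole range. Chance flags about 1 in 20 groups. Among lincRNAs with their own reads, control replicate 2 stood high for Neat1 (261 CPM) and for Lncpint (12.19 CPM). Off-drug replicate 3 stood high for A830039N20Rik (7.43 CPM). Malat1 was low in on-drug replicate 3 (2034 CPM).

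The trio with near-identical stretches was flagged together. Control replicate 4 stood high for Gm20186 (50.27 CPM) and Gm12840 (69.67 CPM), and off-drug replicate 1 low for Gm26809 (117.3 CPM) and Gm12840 (33.12 CPM). Off-drug replicate 1 stood high for Gm42418 (845.5 CPM) and Gm26889 (25.93 CPM). Replicate 1 stood low for Gm42743 among controls (10.07 CPM) and for C330006A16Rik on drug (32.74 CPM), and high for Gm16596 among controls (20.67 CPM).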

How the results depend on the processing

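For 41 members followed through 22 alternative fits, 33 of 58 called changes passed in every fit, 25 were lost in at least 1, and 0 reversed. The counts moved more, and the cause was not tested except where fewer genes or samples entered. On drug against control, members called up were 6 with the skeletal muscle score, 7 at a minimum of 500 counts, 6 with no shared exon base, 5 with own reads (an alternative chosen after seeing the data) and 6 to 12 with 1 library left out (6 without control replicate 3 or on-drug replicate 4, 7 without on-drug replicate 3). Members called down were 7 with DESeq2, 6 at a minimum of 100 counts, 1 with no shared base, 1 with own reads and 1 to 6 with 1 library left out (6 without control replicate 1, 5 without on-drug replicate 1, 1 without control replicate 3 or on-drug replicate 3 or 4). Off drug against control, up were 5 with the muscle score, 6 at 500 counts, 4 with no shared base, 3 with own reads and 9 to 17 with 1 library left out (9 without off-drug replicate 3); down were 19 with DESeq2, 7 with the muscle score, 7 at 500 counts, 3 with no shared base, 5 with own reads and 9 to 15 with 1 left out. Off drug against on drug, up were 16 with DESeq2, 17 at 100 counts, 4 at 500 counts, 4 with no shared base, 3 with own reads and 5 to 12 with 1 left out (5 without off-drug replicate 3); down were 11 at 500 counts, 9 with no shared base, 11 with own reads and 16 to 22 with 1 left out. The median off drug against control was 0.06 by library size alone and -0.09 with no shared base. Same-numbered libraries deviated together little (r from -0.0797 to 0.0672). Off-drug replicates 2, 3 and 4 each correlated best with the on-drug library of the same number (r = 0.0546, 0.0672 and 0.0470). Values this small cannot exclude a pairing or a shared batch, and the labels state none. With the replicate block, 11, 13 and 10 members were called up and 2, 15 and 21 down. Shared reads limit 113 of the 151 members, and 4 libraries a group limit small changes.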
